A study of Mus musculus with 5 samples.

Results

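The DOCK genes encode guanine nucleotide exchange factors, proteins that load the small GTPases Rac and Cdc42 with GTP and so turn them on. The 9 genes described here (Dock1, Dock3, Dock4, Dock5, Dock6, Dock8, Dock9, Dock10 and Dock11) were found by symbol among the 32532 genes of the count tables. The family was chosen by the counts of Dock10, which are far higher in dentate gyrus than in cortex, so the difference between these tissues is given for the 9 genes as a description. How many of them were called in the fit over all genes is given for the record, with no p for a member, and supports nothing further. Other genes of the DOCK family are not described here.

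The libraries hold RNA recovered from tagged ribosomes of dissected brain tissue, 3 from dentate gyrus and 2 from cerebral cortex. All 5 came from untreated adult mice of a single genotype, in which the Rbp4-Cre KL100 driver switches on an EGFP-labelled copy of the ribosomal protein Rpl10a from the Rosa26 locus, and polysomes were captured with anti-EGFP antibodies (translating ribosome affinity purification, TRAP). Tagging depends on Cre activity, present or past, and no input RNA or untagged control was analysed here. The labels give no animal for a library, so the spread between replicates may be technical. In such bulk samples, fewer cells of a type and less RNA per cell cannot be told apart.

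Gene counts per library ran from 22600963 to 36837908. Prox1, a homeobox gene that marks granule cells, was at 1141, 940.4 and 1090 CPM (gene counts per 1000000, scaled to library size) in dentate gyrus replicates 1, 2 and 3, against 2.37 and 14.7 CPM in cortex replicates 1 and 2. Fezf2, which specifies deep-layer projection neurons, was at 1.82, 60.2 and 17.5 CPM in dentate gyrus and at 353 and 283 CPM in cortex. The 9 granule cell markers summed to 3482 to 3929 CPM in the dentate gyrus libraries and to 324 to 327 CPM in the cortex libraries, and the 9 cortical projection neuron markers to 175 to 333 CPM in dentate gyrus and 1601 to 1724 CPM in cortex. Both marker sums thus differed between the tissues, but the lists were chosen with earlier results of these data known. Dentate gyrus replicate 2 had the most cortical marker signal of its group.

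DOCK proteins have a catalytic region unlike the Dbl homology domain of most exchange factors for these GTPases, and a second conserved region that binds membrane phosphoinositides. Subfamilies A (Dock1, Dock5) and B (Dock3, Dock4) act on Rac and work with ELMO scaffold proteins. Subfamily C (Dock6, Dock8) has been reported to act on Rac, Cdc42 or both, and subfamily D (Dock9, Dock10, Dock11), also called zizimins, acts mainly on Cdc42. In neurons, Rac and Cdc42 direct the actin filaments of growing axons, dendrites and dendritic spines.

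All 9 genes have long gene models with many exons. Their spans in the GENCODE annotation of GRCm38, the build also called mm10, run from 52.8 kb for Dock6 to 503 kb for Dock1, and the longest coding transcripts have 48 to 56 exons and 1865 to 2187 codons. Dock10 lies on the minus strand of chromosome 1 from 80501073 to 80758527, Dock11 on the plus strand of chromosome X from 35888832 to 36076562, and Dock4 on the plus strand of chromosome 12 from 40445952 to 40846874. Dock3, on the minus strand of chromosome 9 from 106892825 to 107231909, shares 1082 exon bases with the antisense gene 4930524O07Rik, which has no row of its own under that symbol in the tables. The strand setting of the counting is not given in the sources used here, so reads of that antisense gene may be in the Dock3 count. No other member shares exon bases with another annotated gene, apart from the 88 bases of a microRNA gene within Dock3.

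The 250 bases before the annotated start are shown for Dock10, Dock11 and Dock4, the 3 members with more RNA in every dentate gyrus library than in any cortex library. They are RefSeq sequences of GRCm38.p6, read 5′ to 3′ on the strand of the gene. Capitals mark 2 motifs on either strand, GGGCGG, known as the GC box, and CAGATG, a form of the E-box that basic helix-loop-helix factors such as NeuroD proteins bind. The motifs do not overlap in these stretches. Dock10 has 2 annotated starts, the upstream one at chr1:80758554-80758803 and the internal one at chr1:80665353-80665602, both on the minus strand. The Dock11 and Dock4 stretches are chrX:35888582-35888831 and chr12:40445803-40446052 on the plus strand. The RefSeq start of Dock4 lies after that of the GENCODE gene model, 40445952, so this stretch runs into that model.
Dock10 upstream start: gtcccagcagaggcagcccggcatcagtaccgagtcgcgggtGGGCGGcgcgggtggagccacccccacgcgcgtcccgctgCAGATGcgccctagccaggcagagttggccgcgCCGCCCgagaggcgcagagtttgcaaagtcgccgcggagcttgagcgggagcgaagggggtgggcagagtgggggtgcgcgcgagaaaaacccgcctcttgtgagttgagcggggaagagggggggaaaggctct
Dock10 internal start: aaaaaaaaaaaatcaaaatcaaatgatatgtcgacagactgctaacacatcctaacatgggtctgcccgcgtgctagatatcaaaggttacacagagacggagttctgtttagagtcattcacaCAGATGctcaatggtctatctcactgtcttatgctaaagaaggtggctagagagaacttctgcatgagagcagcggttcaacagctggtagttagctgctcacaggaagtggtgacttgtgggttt
Dock11 start: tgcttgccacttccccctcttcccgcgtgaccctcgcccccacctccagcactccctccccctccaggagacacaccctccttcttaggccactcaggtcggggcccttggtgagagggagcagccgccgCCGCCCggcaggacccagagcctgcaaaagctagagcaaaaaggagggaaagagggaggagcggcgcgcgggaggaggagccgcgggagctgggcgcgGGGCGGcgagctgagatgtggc
Dock4 start: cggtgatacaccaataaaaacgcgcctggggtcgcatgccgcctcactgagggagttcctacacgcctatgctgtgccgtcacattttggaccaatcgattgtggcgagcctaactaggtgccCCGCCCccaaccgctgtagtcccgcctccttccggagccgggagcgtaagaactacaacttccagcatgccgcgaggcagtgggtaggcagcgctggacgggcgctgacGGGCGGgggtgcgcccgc

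The 2 Dock10 stretches differed in base composition. The upstream one had 27 CpG pairs and 70.4% G or C, the internal one 5 CpG pairs and 43.2%, where the medians over 32851 annotated promoters of this length were 6 CpG pairs and 52.4%. Both held CAGATG once, a motif present in 14.4% of those promoters, and neither Dock11 nor Dock4 held it. GGGCGG was present 2 times before the upstream Dock10 start, 2 times before Dock11 and 2 times before Dock4, and was absent from the internal Dock10 stretch. It occurred in 32.7% of all promoters and in the most upstream stretch of each of the 8 members matched in the RefSeq table (all but Dock5), with 2 to 5 copies. The general E-box letters CANNTG, which include CAGATG, were found 1 time upstream and 3 times at the internal start of Dock10, in 0 copies before Dock11 and Dock4, and in 66.2% of all promoters. A match of letters is not a binding site, and counts per gene do not show which Dock10 start was used.

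**Figure D1:**
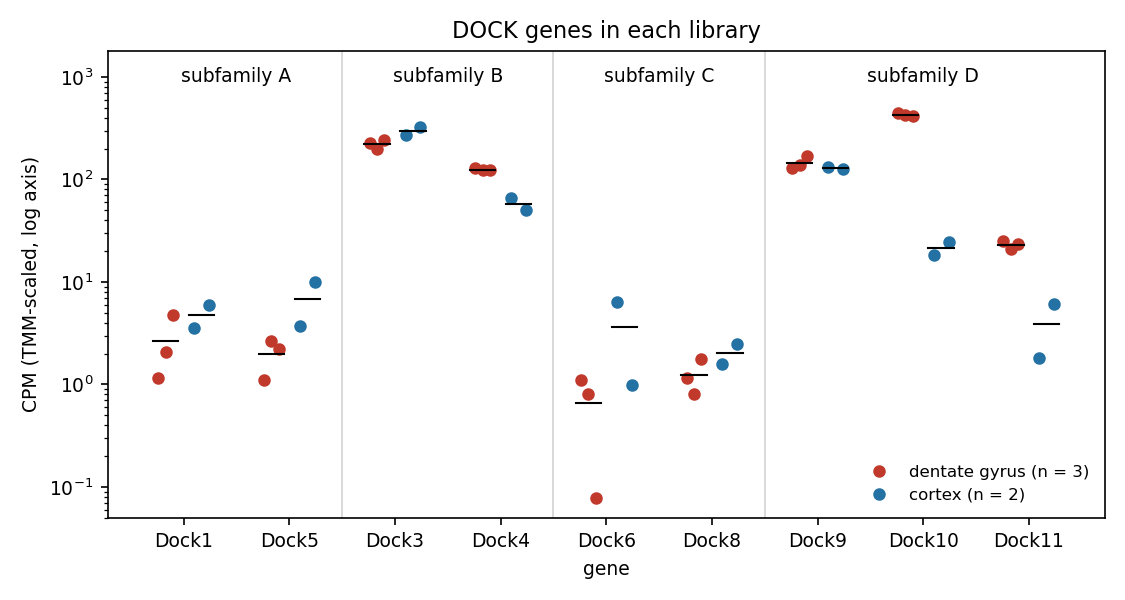
CPM of each DOCK gene on a log axis, by subfamily. Points are libraries, dentate gyrus (n = 3) left of cortex (n = 2), and black bars are means; Dock10, Dock11 and Dock4 lie higher in every dentate gyrus library than in either cortex library, with a mean for Dock10 of 428 CPM over the dentate gyrus libraries and 21.5 CPM over the cortex libraries.

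Subfamily D held the members with the highest log2 differences of the family, Dock10 and Dock11, and the other gene of the subfamily, Dock9, lay at like levels in both tissues. Dock10, an exchange factor for Cdc42 and Rac with a known part in dendritic spine formation in neurons, had 443, 422 and 418 CPM in dentate gyrus replicates 1, 2 and 3, against 18.4 and 24.6 CPM in cortex replicates 1 and 2. The dentate gyrus libraries differed by little among themselves, the highest 1.06 times the lowest, and both cortex libraries were far below them. Dock10 averaged 428 ± 13.7 CPM in dentate gyrus (SD, n = 3) and 21.5 ± 4.35 CPM in cortex (SD, n = 2), a ratio of 19.9. Its fitted log2 difference, dentate gyrus minus cortex, was 4.32 (SE 0.18), and 249 of 14136 genes tested had a larger one.

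Dock11, a Cdc42 exchange factor best known from lymphocytes, was at 25.1, 20.8 and 23.3 CPM in dentate gyrus and at 1.82 and 6.03 CPM in cortex. Every dentate gyrus library was above both cortex libraries, and the cortex libraries differed 3.3 times from each other, replicate 2 being the higher. The means were 23.1 ± 2.18 CPM in dentate gyrus (SD, n = 3) and 3.93 ± 2.97 CPM in cortex (SD, n = 2). The log2 difference of 2.56 (SE 0.53) was 1.94 without cortex replicate 1 and 3.62 without cortex replicate 2. Genes that mark lymphocytes were nearly absent, with 7 of the 8 markers at 0 counts in all dentate gyrus libraries. The list summed to 0 to 0.0888 CPM there and to 0.246 to 1.45 CPM in cortex. A part of such cells in the Dock11 counts was not tested.

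Dock9, the zizimin for which the subfamily was named and a Cdc42 exchange factor in dendrite growth, was at 130.4, 137 and 168 CPM in dentate gyrus and at 132 and 125 CPM in cortex. The cortex values lay at the lower end of the dentate gyrus values, and the groups overlapped. Its log2 difference was 0.17 (SE 0.17), so Dock9 showed no difference larger than the spread between replicates. Within subfamily D, the ratio of Dock10 to Dock9 per kilobase of exon was 2.46, 2.23 and 1.81 in the dentate gyrus libraries and 0.101 and 0.142 in the cortex libraries.

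Of the subfamily B genes, Dock4 had the higher values in dentate gyrus and Dock3 in cortex. Dock4, a Rac exchange factor of dendritic spines, was at 129, 123 and 123 CPM in dentate gyrus and 65.6 and 50.2 CPM in cortex. No dentate gyrus library came near the cortex values. The means were 125 ± 3.43 CPM in dentate gyrus (SD, n = 3) and 57.9 ± 10.9 CPM in cortex (SD, n = 2), a ratio of 2.16 and a log2 difference of 1.11 (SE 0.19). Dock3, a neuronal Rac exchange factor that was first described as a binder of presenilin, was at 227, 198 and 242 CPM in dentate gyrus and 271 and 326 CPM in cortex. Here both cortex libraries were the higher ones, by a narrow margin, and the log2 difference was -0.42 (SE 0.15). Per kilobase, Dock3 exceeded Dock4 by 2.8, 2.56 and 3.13 times in the dentate gyrus libraries and by 6.55 and 10.3 times in the cortex libraries. These ratios depend on the length used. With the longest transcript as length, Dock3 and Dock4 averaged 24.6 and 14.6 CPM per kb in dentate gyrus. In cortex they averaged 32.9 and 6.77 CPM per kb, so the genes lay closer in both tissues.

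Subfamilies A and C were scarce in both tissues. Dock1, the founding member that drives Rac in cell migration and engulfment, was at 1.16, 2.09 and 4.74 CPM in dentate gyrus (42, 47 and 121 counts) and at 3.56 and 5.95 CPM in cortex (125 and 145 counts). The groups overlapped, since dentate gyrus replicate 3 lay between the cortex libraries, and the log2 difference was -0.84 (SE 0.80). Dock5, a close relative known from osteoclasts, was at 1.10, 2.67 and 2.23 CPM in dentate gyrus and at 3.68 and 9.89 CPM in cortex. The cortex libraries were both higher but differed 2.69 times from each other, and the log2 difference was -1.76 (SE 0.75).

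Dock6, which acts on Rac and Cdc42, was the least even member. It was at 1.10, 0.80 and 0.0783 CPM in dentate gyrus (40, 18 and 2 counts) and at 6.36 and 0.985 CPM in cortex (223 and 24 counts). Cortex replicate 1 stood alone at the high end, and cortex replicate 2 fell among the dentate gyrus values. The log2 difference of -2.46 (SE 1.24) was -0.56 without cortex replicate 1. Dock8, a Cdc42 exchange factor of immune cells, was at 1.16, 0.80 and 1.76 CPM in dentate gyrus and 1.57 and 2.46 CPM in cortex, with overlapping groups and a log2 difference of -0.70 (SE 1.0).

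The scarce members are known from glia, vessels and immune cells as well as neurons, so the levels of markers of such cells are given beside them. The 10 oligodendrocyte markers summed to 167 to 238 CPM in dentate gyrus and 255 to 336 CPM in cortex, and 2 of 9 tested, Cnp and Ugt8a, were lower in dentate gyrus. For 8 microglia markers the sums were 5.6 to 9.27 CPM in dentate gyrus and 10.2 to 10.7 CPM in cortex, with C1qa at 0 counts in all libraries and Tmem119 at 0 counts in all dentate gyrus libraries. The 9 vascular markers summed to 10.1 to 40.5 CPM in dentate gyrus and 15.5 to 24.6 CPM in cortex, with Cldn5 at 0 counts in both cortex libraries. For the 8 astrocyte markers the sums were 649 to 806 CPM in dentate gyrus and 1198 to 1210 CPM in cortex. Slc1a2 alone gave 595, 619 and 717 CPM of this in dentate gyrus and 984 and 1004 CPM in cortex. Slc1a2, Aldh1l1, S100b and Aldoc, 4 of the 8, were lower in dentate gyrus. Gfap, Aqp4, Slc1a3 and Gja1 had higher means in dentate gyrus and were not called. The 6 markers of oligodendrocyte precursors summed to 19.0 to 44.1 CPM in dentate gyrus and 29.1 to 42.5 CPM in cortex, and 2 were lower in dentate gyrus. Their part in the levels of Dock1, Dock5, Dock6 and Dock8 was not tested. The 8 interneuron markers belong to neurons that neighbour both granule and pyramidal cells. They summed to 186 to 223 CPM in dentate gyrus and 897 to 908 CPM in cortex. Sst alone gave 700 and 641 CPM in cortex replicates 1 and 2. In dentate gyrus 5 were lower (Gad2, Sst, Pvalb, Vip and Npy) and 1, Gad1, was higher. Gad1 and Gad2 thus went opposite ways, with log2 differences of 0.93 and -1.74. Beside the counts of called markers in these lists, 10.5% of all genes were called higher in dentate gyrus and 10.8% lower.

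**Figure D2:**
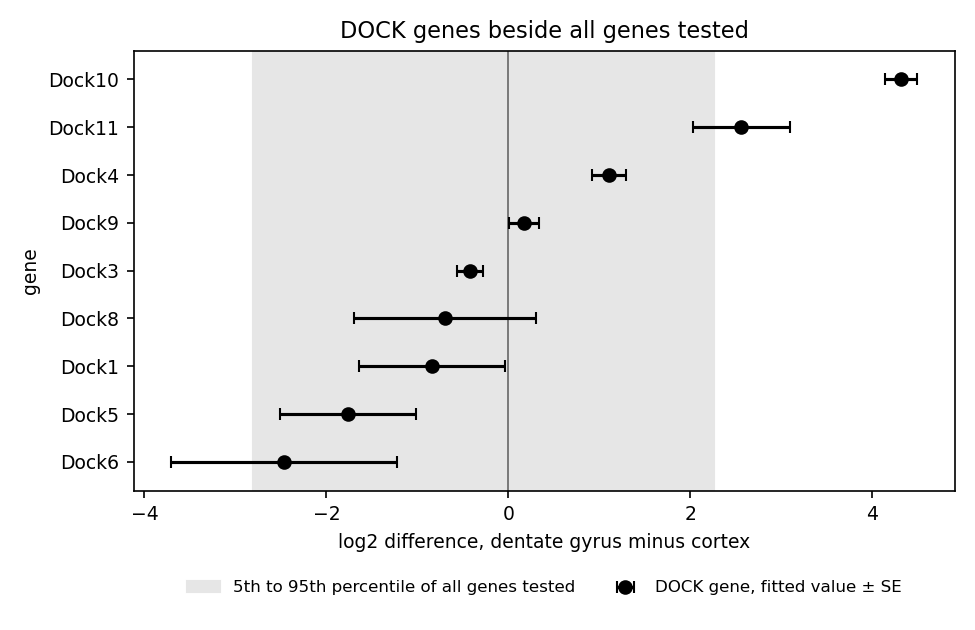
Fitted log2 difference, dentate gyrus minus cortex, of each DOCK gene (points, with SE bars) beside the 5th to 95th percentile of all 14136 genes tested (grey band, -2.80 to 2.26). Dock10 at 4.32 and Dock11 at 2.56 lie above the band and the other 7 genes within it.

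All 9 members passed the filter on low counts. In the edgeR quasi-likelihood test, with p adjusted by Benjamini-Hochberg over 14136 genes, 3 members were called higher in dentate gyrus (Dock10, Dock11 and Dock4), beside 10.5% of all genes called in that direction. None was called lower, beside 10.8% of all genes. At an unadjusted p under 0.05 Dock3 and Dock5 were lower too, DESeq2 called 1 member lower (Dock3), and limma voom called 0. The groups did not overlap for 5 members, as for 50.1% of all genes. Of these, 3 were higher in dentate gyrus, beside 25.1% of all genes, and 2 were lower, beside 25%. The median log2 difference was -0.42 over the 9 members and 0.02 over all genes. Since the contrast chose the family, these shares are given for the record and nothing is read from them.

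Levels of different genes were compared per kilobase of annotated exon. In dentate gyrus Dock10 was the most abundant member at 23.4 ± 0.749 CPM per kb (SD, n = 3), ahead of Dock3 at 15.4 ± 1.55, Dock9 at 10.9 ± 1.5, Dock4 at 5.44 ± 0.150 and Dock11 at 2.5 ± 0.236 CPM per kb. Each of these levels was above the next in all libraries. Dock1, Dock5, Dock8 and Dock6 followed at 0.285, 0.164, 0.123 and 0.0752 CPM per kb, and neighbours among these 4 overlapped. Against all genes tested that have an annotated length, Dock10 was above 87.4% of them in dentate gyrus, and Dock6 above 4.02%.

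In cortex the order was different at the top. Dock3 led at 20.6 ± 2.69 CPM per kb (SD, n = 2), followed by Dock9 at 9.72 ± 0.385, Dock4 at 2.52 ± 0.475 and Dock10 at 1.18 ± 0.238 CPM per kb, each above the next in both libraries. Dock5, Dock1, Dock11, Dock6 and Dock8, at 0.557, 0.510, 0.425, 0.418 and 0.20 CPM per kb, overlapped with their neighbours in the order. Dock10 was above 29.4% of all genes there and Dock3 above 85.8%.

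The summed level of the 9 genes was 58.6, 55.4 and 61.0 CPM per kb in the dentate gyrus libraries and 34.4 and 38.0 CPM per kb in the cortex libraries. Dock10 made up 41.4%, 41.7% and 37.5% of that sum in dentate gyrus and 2.94% and 3.54% in cortex. Dock3 made up 26.4 ± 1.42% in dentate gyrus (SD, n = 3) and 56.9 ± 3.41% in cortex (SD, n = 2). By subfamily, the zizimins (D) held 63.2 ± 1.12% in dentate gyrus and 31.4 ± 1.74% in cortex, and subfamily B held 35.7 ± 1.09% in dentate gyrus and 64.0 ± 1.60% in cortex. Subfamilies A and C together stayed small in both tissues, A at 0.766% in dentate gyrus and 2.91% in cortex, C at 0.340% in dentate gyrus and 1.75% in cortex. In CPM per kb, the subfamily B sum of 20.8 ± 1.58 in dentate gyrus and 23.2 ± 2.22 in cortex overlapped between tissues, while the subfamily D sum was 36.9 ± 1.16 in dentate gyrus and 11.3 ± 0.175 in cortex.

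**Figure D3:**
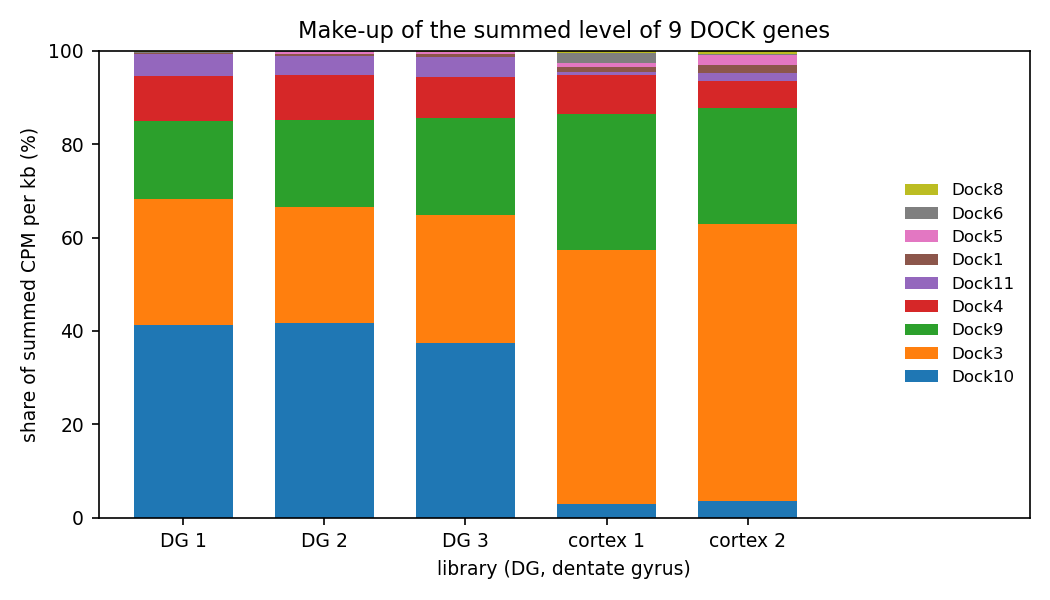
Share of the summed CPM per kilobase that each of the 9 DOCK genes held in each library, the 3 dentate gyrus libraries (DG) left of the 2 cortex libraries. Dock10 held 37.5% to 41.7% in dentate gyrus and 2.94% to 3.54% in cortex, where Dock3 held 54.5% and 59.3%.

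The genes most like Dock10 were sought by the root mean square difference between log2 CPM profiles over the 5 libraries, each centred on the mean of its tissue means. The 5 nearest were Tdo2 (0.0846), which encodes tryptophan dioxygenase, Zbtb20 (0.146), a zinc finger repressor of hippocampal development, Htra4 (0.147), a serine protease, Tgfa (0.172), a ligand of the EGF receptor, and Frmd4b (0.203), a scaffold protein. Zbtb20 was at 326, 273 and 304 CPM in dentate gyrus and 10.7 and 14.4 CPM in cortex, a log2 difference of 4.58, and the 5 genes spanned 4.07 to 4.58. They were picked for a profile like that of Dock10, so low cortex values beside high dentate gyrus values follow from the choice. Htra4 was less even than Dock10 in dentate gyrus, at 46.0, 53.1 and 38.2 CPM. Tdo2 stayed among the 5 nearest under every other setting tried, whereas it alone of the 5 was shared without cortex replicate 2. Leaving out dentate gyrus replicate 2 or 3 left 3 of the 5 shared. Among the DOCK genes, Dock11 was nearest to Dock10, at place 205 of 14135 genes, and Dock4 was at place 1445.

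ELMO and CRK adaptor proteins bring subfamily A and B members to the membrane. Of 9 tested adaptor genes, 1 was higher and 3 were lower in dentate gyrus by edgeR, beside 10.5% and 10.8% of all genes. Elmo1, the scaffold that binds Dock1 and its relatives, was at 15.3, 44.3 and 20.6 CPM in dentate gyrus and at 271 and 362 CPM in cortex, a log2 difference of -3.57 (SE 0.38) and an edgeR adjusted p of 0.000157. Elmo2, a second scaffold of the same kind, was at 169, 129 and 151 CPM in dentate gyrus and at 68.7 and 88.6 CPM in cortex (log2 0.93, SE 0.19, edgeR adjusted p 0.00718). The 2 ELMO genes therefore lay on opposite sides, each with no overlap between tissues. The adaptor gene Crkl and the scaffold gene Git1 were lower in dentate gyrus, with log2 differences of -0.89 and -1.09. The Elmo2 adjusted p was 0.0607 without cortex replicate 1, which left 0 genes called higher, and 2 were called higher without dentate gyrus replicate 2. The Crkl call was lost without cortex replicate 1 (adjusted p 0.165) and when dentate gyrus replicate 3 was left out (0.0592). A replicate block gave Crkl 0.0942, and Git1 was at 0.0718 without cortex replicate 2. The list median was 0.73, beside 0.02 over all genes, with Elmo3 too scarce to test.

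Among the GTPases that these factors act on, 1 of 8 tested genes was higher in dentate gyrus by edgeR, near the 10.5% of all genes. By edgeR 0 were lower, beside 10.8% of all genes, with 0 lower also at an unadjusted p under 0.05, by DESeq2 and by limma voom. Rac1, the main neuronal Rac, was at 1966, 1898 and 1797 CPM in dentate gyrus and at 1238 and 1019 CPM in cortex. That is a log2 difference of 0.74 (SE 0.11), with an edgeR adjusted p of 0.000904. Cdc42 was at 247, 254 and 287 CPM in dentate gyrus and at 226 and 214 CPM in cortex, and its log2 difference of 0.26 (SE 0.13) did not pass (edgeR adjusted p 0.216). Rhog, the GTPase that recruits ELMO to the membrane, was scarce at 0.552, 0 and 0.117 CPM in dentate gyrus and at 1.2 and 2.42 CPM in cortex, and it did not pass (edgeR adjusted p 0.225). Reads with several matches in the genome were not counted, so genes that have near-identical copies may be undercounted. The list median was -0.93, beside 0.02 over all genes, and was carried by genes under 20 CPM such as Rhoq and Rac3.

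Exchange factors of the Dbl type are the other large class acting on Rac and Cdc42. Of 26 tested genes, 8 were higher in dentate gyrus, 2 were lower and 16 were not called by edgeR. Of all genes, 10.5% were higher and 10.8% lower. The list median was 0.44, beside 0.02 over all genes. Tiam1, a Rac exchange factor of dendritic spines, was at 641, 544 and 570.1 CPM in dentate gyrus and at 121 and 117 CPM in cortex (log2 2.30, SE 0.13). Spata13, an exchange factor for Rac and Cdc42, was at 155, 100.2 and 133 CPM in dentate gyrus and at 4.88 and 14.4 CPM in cortex, a log2 difference of 3.76 (SE 0.44). Its difference was 3.17 without cortex replicate 1 and 4.70 without cortex replicate 2. Fgd4, a Cdc42 exchange factor, had a log2 difference of 1.62 (SE 0.24). Farp1, an exchange factor of dendrites and synapses, was at 5.85, 7.55 and 3.72 CPM in dentate gyrus and at 36.2 and 37.2 CPM in cortex (log2 -2.69, SE 0.37, edgeR adjusted p 0.00076), and Prex1 was lower in dentate gyrus too (log2 -0.97, SE 0.24). The count of higher genes was 5 without cortex replicate 1 and 5 without cortex replicate 2. Without cortex replicate 1 the Prex1 adjusted p was 0.118 and 1 gene was called lower.

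GTPase-activating proteins and GDP dissociation inhibitors oppose the exchange factors. Of 19 tested genes, 4 were higher and 6 lower in dentate gyrus by edgeR, beside 10.5% and 10.8% of all genes. The list median was -1.01, beside 0.02 over all genes. Arhgap32, a brain GTPase-activating protein of the postsynaptic density, was at 402, 422 and 355 CPM in dentate gyrus and at 1111 and 1256 CPM in cortex (log2 -1.59, SE 0.12). Arhgdig, a brain GDP dissociation inhibitor, was at 2.57, 1.91 and 0.979 CPM in dentate gyrus and at 42.6 and 24.8 CPM in cortex (log2 -4.20, SE 0.49), and Arhgap33 lay on the same side (log2 -2.13, SE 0.27). Higher in dentate gyrus were Chn1, the alpha-chimaerin gene, with a log2 difference of 0.51 (SE 0.08), Arhgap39 (0.94, SE 0.20) and the slit-robo protein gene Srgap3 (0.42, SE 0.09). Without cortex replicate 2 the adjusted p of Arhgap39 was 0.0710 and that of Srgap3 0.0766, and 1 gene was called higher. With a replicate block the Srgap3 value was 0.0522. Without cortex replicate 1, 3 genes were called lower.

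Effectors bind the loaded GTPases and pass the signal on. Of 22 tested genes, 5 were higher and 3 lower in dentate gyrus by edgeR, beside 10.5% and 10.8% of all genes. The list median was 0.00, beside 0.02 over all genes. Cdc42ep4, a Cdc42 effector that organises septins, was at 27.4, 30.1 and 24.2 CPM in dentate gyrus and at 0.570 and 0.656 CPM in cortex, a log2 difference of 5.47 (SE 0.44, edgeR adjusted p 2.8e-05). Iqgap2, a scaffold that binds Rac and Cdc42, was at 261, 297 and 247 CPM in dentate gyrus and at 72.3 and 51.2 CPM in cortex (log2 2.12, SE 0.19). Pak1, the kinase through which Rac and Cdc42 act on actin, had a log2 difference of -1.68 (SE 0.09). It was at 850.2, 795 and 800.5 CPM in dentate gyrus and at 2731 and 2480 CPM in cortex. Pak2 and Pak3 were higher in dentate gyrus (log2 0.87 and 0.64, edgeR adjusted p 0.0366 and 0.0123). Without dentate gyrus replicate 2, and also without replicate 3, 4 effector genes were called higher. Cdc42ep4, Iqgap2 and Cdc42se2 kept their calls there, so the Pak2 and Pak3 calls did not both hold. Limk1, a kinase downstream of Pak, was lower in dentate gyrus (log2 -2.64, SE 0.66), with an adjusted p of 0.0936 without cortex replicate 1, 0.0781 without cortex replicate 2 and 0.0539 with a replicate block. Cdc42se2 was higher in dentate gyrus (log2 0.91), with an adjusted p of 0.0722 without cortex replicate 2. Cdc42bpb was lower in dentate gyrus at an edgeR adjusted p of 0.0499, which was 0.0585 to 0.302 when any library other than dentate gyrus replicate 1 was left out, and 0.133 with a replicate block. The count of higher genes was 3 without cortex replicate 2, and that of lower genes was 1 without cortex replicate 1 and 1 with a replicate block.

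**Figure D4:**
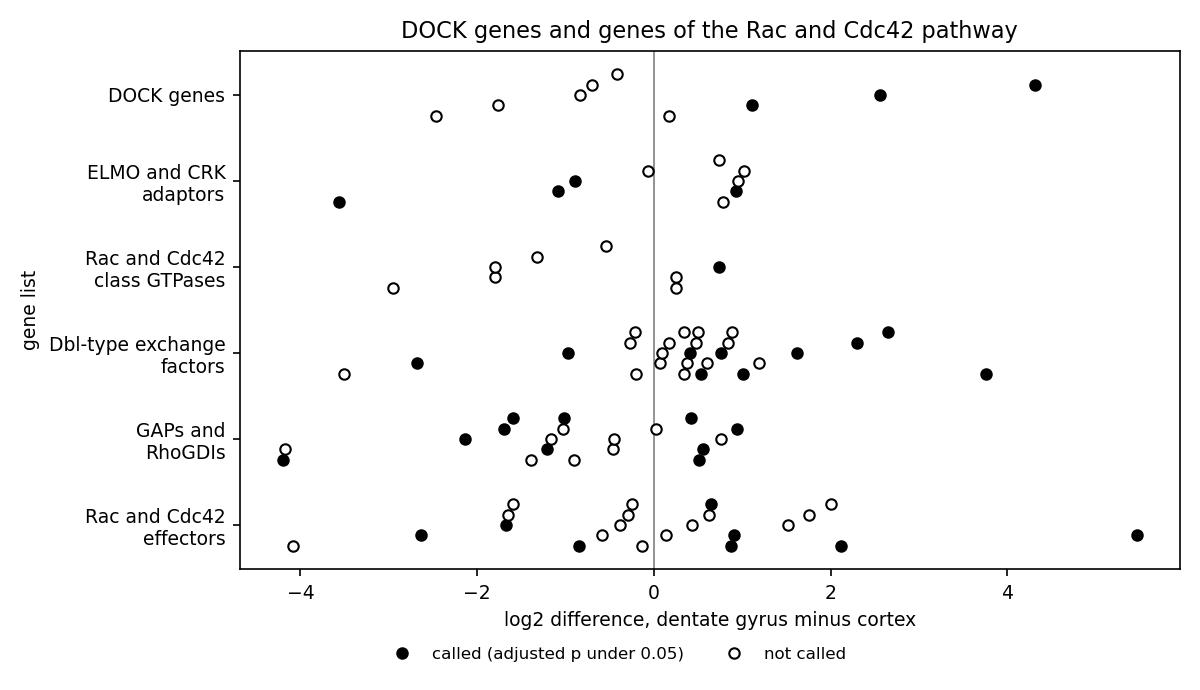
Fitted log2 difference, dentate gyrus minus cortex, of the 9 DOCK genes and of the tested genes in 5 lists of the Rac and Cdc42 pathway. Each circle is a gene, filled where edgeR's adjusted p was under 0.05; Dock10 at 4.32 and the effector gene Cdc42ep4 at 5.47 lie farthest to the right among filled circles, and Arhgdig, a GDP dissociation inhibitor gene, at -4.20 farthest to the left.

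Over the 5 lists together, 19 of 84 tested genes were higher and 14 lower in dentate gyrus, 39.3% in all, where 21.3% of all genes tested were called in either direction. The lists were chosen with earlier results of these data known, so nothing is read from these shares.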

How the data were processed

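RNA pulled down with tagged ribosomes was counted in 3 dentate gyrus and 2 cortex libraries. The deposited files hold raw counts of reads for each gene symbol. Per the submitters' processing notes they were made with STAR 2.0.0e and HTSeq on mm10. The annotation and the strand setting are not given in sources used here. The HTSeq summary classes, 40.2% to 44.6% of all entries, entered neither library sizes nor tests.

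The rest was computed from those counts. edgeR 4.0.16 in R 4.3.3 scaled libraries by trimmed mean of M values (TMM), kept 14136 of 32532 genes with filterByExpr, and fitted tissue alone with the quasi-likelihood F test over all genes, calling genes at a Benjamini-Hochberg adjusted p under 0.05. SE is the fitted log2 difference divided by the root of F. CPM uses TMM-scaled totals of gene counts, log2 profiles a prior count of 2. Lengths are unions of GENCODE M21 exons, found for 90.8% of tested genes. The procedure was also run on simulated counts. Far fewer genes differed between groups there than were called here, so that run supports no result.

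The members and lists were chosen with earlier results of these data known. Named genes are the 9 members and, in each list, up to 3 called genes per direction with the smallest adjusted p. Others are 5 genes named in advance, the 5 nearest to Dock10, Prox1, Fezf2 and called markers. Pak2, Pak3, Rhoq, Rac3 and markers not called were named after their values were seen. Alternatives were 2 scalings, 2 filters, DESeq2 1.42.0, limma 3.58.1 voom, robust dispersion, a replicate block, leaving out libraries, transcript length, and other settings of the likeness. Plots used matplotlib 3.10.9 and Python 3.11.15.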

Additional observations from a re-analysis of the deposited data

How the results depend on the processing

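Dock10, Dock11 and Dock4 were called higher in dentate gyrus under all 14 other settings of the comparison. Dock3 was also called lower, making 1 member in place of 0, with no filter, with the stricter filter and by DESeq2; Dock6 could not be tested under the stricter filter. Of 125 log2 values of members under other settings, 122 kept their direction and call and 3, all of Dock3, became calls. Of the same values for named pathway genes, 311 kept both and 24 kept their direction but lost the call. Leaving out each library in turn gave 3 members higher and 0 lower each time.

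Pathway counts moved more. ELMO and CRK adaptor genes called higher numbered 3 with no filter, 3 by DESeq2, 3 by limma voom and 0 to 2 over the libraries left out in turn. Effector genes called lower numbered 5 with no filter, 5 by limma voom, 1 with the replicate block and 1 to 3 over libraries left out. The ranges over libraries left out were 5 to 8 higher and 1 to 2 lower for Dbl-type factors, 1 to 4 higher and 3 to 8 lower for GAPs and RhoGDIs, and 3 to 5 higher for effectors. Of all genes, 908 to 1276 were higher and 913 to 1499 lower. With cortex replicate 1 and dentate gyrus replicate 2 left out together, 771 genes were higher and 807 lower, with 0 adaptors higher, 4 and 1 Dbl-type factors higher and lower, 2 GAPs and RhoGDIs higher and 1 effector lower. These 2 libraries were left out because earlier results of these data showed genes unlike their group there. Causes of these moves were not tested, beyond the fewer libraries in some fits.

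Whether same-numbered libraries came from the same animal is not known. Deviations from the tissue means correlated at -0.004 and -0.0163 between same-numbered libraries. With 2 cortex libraries these deviations mirror each other, so the values cannot decide on pairing. The replicate block left the calls of the 9 members as they were.

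With the longest transcript as length, Dock10 held 49.2% of the summed DOCK level in dentate gyrus and 4.85% in cortex, and it kept place 1 in dentate gyrus and 4 in cortex. By that length Dock10 and Dock9 averaged 59.4 and 17.9 CPM per kb in dentate gyrus and 2.99 and 15.9 in cortex. Ratios between members therefore depend on the length used. Of the 5 genes nearest to Dock10, 2 were shared by Pearson correlation and 1 to 4 over libraries left out. Dock1, Dock5, Dock6 and Dock8 had 2 to 241 counts per library and SEs of 0.75 to 1.24 on the log2 scale, against 0.19 for Dock4. Low counts and spread between replicates were not separated in these SEs.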
